A study of Homo sapiens with 6 samples.

Results

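The LIM kinases, cofilins and slingshot phosphatases were followed as 10 genes picked by symbol from the deposited gene table, which lists 46427 genes: the kinases LIMK1, LIMK2, TESK1 and TESK2, the cofilins CFL1 and CFL2, and the phosphatases SSH1, SSH2, SSH3 and PDXP. The rule names the genes and uses no measured value, but the genes were chosen with earlier results of these data known. RNA came from MDA-MB-231, a triple-negative, mesenchymal-like human breast cancer line, grown in low-glucose medium with serum and labelled as wild type. The 3 preparations of the first group received control-siRNA. The 3 preparations of the second group received siGENOME siRNA against WWTR1, the gene for the transcriptional co-activator TAZ, and are called TAZ-siRNA. The study names DharmaFECT4 as its transfection reagent, and for its migration assay it names the reagent for control siRNA and TAZ-siRNA alike. All 6 libraries therefore come from a single line, and TAZ was lowered by transfected siRNA rather than deleted. The siRNA dose and the time from transfection to RNA are not given for these libraries in the sources used here.

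Cofilin binds actin filaments, severs them and speeds their turnover. LIM kinases and the related TES kinases add a phosphate to a serine near the start of cofilin, which keeps it off the filament, and slingshot phosphatases and the phosphatase encoded by PDXP (chronophin) remove it. The kinases of the ROCK and PAK families activate LIM kinases, and in breast cancer cells the cycle is known for its part in protrusion and migration. The libraries measure mRNA, so the phosphorylation of cofilin and the activity of the enzymes lie outside these values.

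The libraries held 48307548 to 71749634 counts. WWTR1 stood at 192, 190 and 190 CPM (counts divided by the effective library size) with control-siRNA and at 17.3, 17.0 and 15.1 CPM with TAZ-siRNA, a level of 8.64% of control. Its log2 fold change was -3.53 (SE 0.061, adjusted p = 2.5e-10 by edgeR, Benjamini-Hochberg over all genes tested). The 6 markers fixed for MDA-MB-231 were all present, with CAV1 and AXL lower under TAZ-siRNA, and their summed TPM (length-scaled abundance with a common total per library) was 7497 to 7908 in control and 7342 to 7495 in TAZ-siRNA libraries. Of 7 luminal breast markers, ESR1, PGR and CDH1 lay under 1 TPM. The summed luminal level was 109 to 111 TPM in control and 135 to 154 TPM in TAZ-siRNA libraries, with KRT19 higher and GATA3 lower, and the part of this difference in the results was not tested. The leukocyte markers PTPRC and CD3E were at 0 in every library, CD14 stood at 0.453 to 0.645 CPM in control and 0.699 to 0.912 CPM in TAZ-siRNA libraries, and the endothelial markers summed to 2.14 to 2.95 TPM in control and 2.22 to 3.67 TPM in TAZ-siRNA libraries. TAZ-siRNA replicate 3 stood apart on the second principal component, at -33.8 against -3.97 to 19.3 for the other libraries. Values without it are therefore given for SSH1, SSH2 and the counts of genes called, though other genes also moved.

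With TAZ-siRNA, LIMK1 mRNA fell to 77.9% of control and SSH2 mRNA rose to 145%, while CFL2 and SSH1 rose by smaller amounts, to 115% and 117%. The mRNA of CFL1, the abundant cofilin, did not pass the test, and neither did LIMK2, TESK1, TESK2, SSH3 or PDXP. All 10 genes were among the 16966 that passed the filter on low counts. Of these 10, 3 rose and 1 fell at an adjusted p under 0.05 (edgeR), which is 40.0% of the genes, against 22.1% of all genes tested. In that background, 11.9% of genes were higher and 10.2% were lower. Both shares moved with the libraries included. LIMK1 alone passed without control-siRNA replicate 2 (against 11.2% of all genes) or control-siRNA replicate 3 (against 12.1%). Without TAZ-siRNA replicate 1, 2 of the 10 passed (against 11.9% of all genes), and without control-siRNA replicate 1, 3 did (against 13.1%). Without TAZ-siRNA replicate 3, 4 of the 10 passed, against 33.7% of all genes. The groups did not overlap in CPM for 8 of the 10 genes, against 39.6% of all genes. Among these, TESK1, TESK2, SSH3 and PDXP did not pass the test and were apart by narrow gaps only. The median log2 fold change was 0.12 over the 10 genes and -0.0054 over all genes tested. By role, 1 of 4 kinases fell and none rose, 1 of 2 cofilins rose, and 2 of 4 phosphatases rose. An unadjusted p under 0.05 by edgeR was found for 6 of the 10 genes, against 6069 of all 16966 genes tested.

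**Figure D1:**
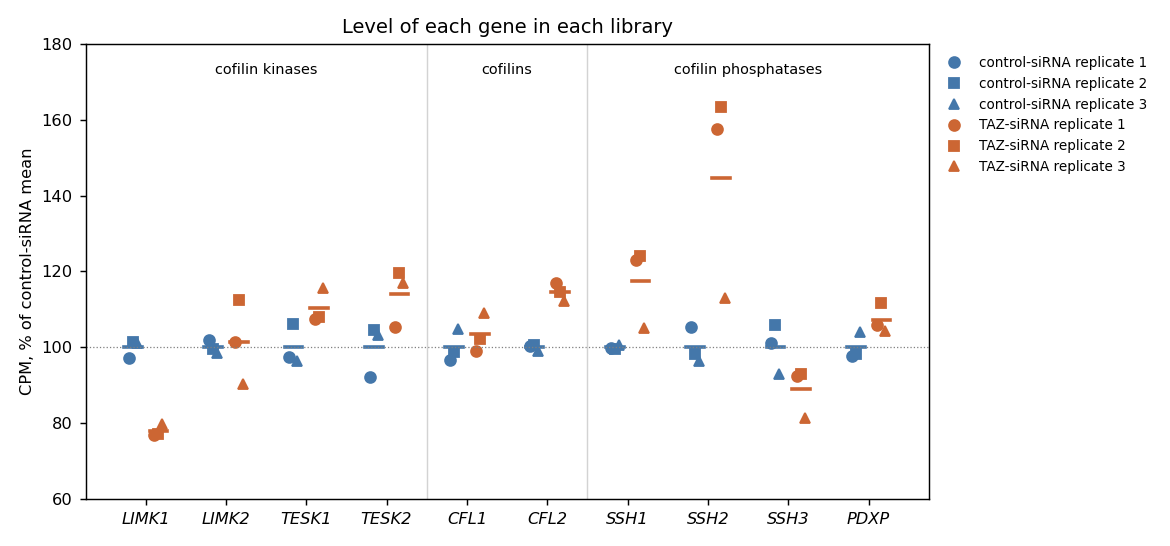
CPM of each gene in each library as a percentage of its control-siRNA mean (vertical axis, linear and starting at 60%), grouped by role, with bars at the group means. LIMK1 lies below all controls in the 3 TAZ-siRNA libraries, at 77.9% on average, while SSH1 and SSH2 in TAZ-siRNA replicate 3 lie much closer to the controls than in replicates 1 and 2.

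LIMK1, the LIM kinase with the most mRNA in these cells, lies on chromosome 7 (74083804 to 74122525, GRCh38). Its levels were 89.4, 93.3 and 93.1 CPM with control-siRNA and 70.8, 70.8 and 73.3 CPM with TAZ-siRNA. The groups were far apart relative to their spread, since the means were 92.0 ± 2.20 and 71.6 ± 1.44 CPM (SD, n = 3 each). The TAZ-siRNA mean was 77.9% of control, with a log2 fold change of -0.36 (SE 0.046, 95% interval -0.46 to -0.26, adjusted p = 5.6e-04 by edgeR). The size of this change exceeded that of 79.2% of all genes tested. Leaving out each library in turn kept it between -0.38 and -0.35 and past the threshold in 6 of 6 fits. In bulk RNA, fewer cells of a type and less RNA per cell cannot be told apart, and this holds for every gene given here.

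LIMK1 has 2 RefSeq transcripts in the deposited table, NM_002314 from the outer start and NM_001204426 from an inner start. The bases before both starts are shown because both transcripts lay lower with TAZ-siRNA. They come from RefSeq on GRCh38.p14, plus strand, with capitals marking matches to GGGCGG, the core bound by SP1, on either strand (CCGCCC where the match is on the other strand).
LIMK1 outer start, chr7:74083554-74083803: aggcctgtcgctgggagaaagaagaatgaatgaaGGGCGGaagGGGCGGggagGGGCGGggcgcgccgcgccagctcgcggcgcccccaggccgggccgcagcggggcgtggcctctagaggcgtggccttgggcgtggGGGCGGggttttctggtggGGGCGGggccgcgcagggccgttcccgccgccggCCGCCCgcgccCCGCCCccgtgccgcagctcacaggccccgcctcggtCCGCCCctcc
LIMK1 inner start, chr7:74092967-74093216: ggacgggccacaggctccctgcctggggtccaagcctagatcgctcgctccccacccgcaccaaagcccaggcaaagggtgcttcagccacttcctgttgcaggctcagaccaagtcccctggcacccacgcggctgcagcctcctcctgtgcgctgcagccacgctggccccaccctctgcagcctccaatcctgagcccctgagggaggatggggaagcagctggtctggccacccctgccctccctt
The outer window had 8 matches to GGGCGG and a GC content of 79.6%, while the inner window had none and 68.0%. All 10 genes matched the promoter table, with 15 windows of 250 bases before a start. A match to GGGCGG was found in 12 of these 15 windows and in 42.6% of all 35116 windows, and the median GC content was 70.0% for the 15 and 58.0% for all. The other motifs searched, on both strands, were GGAATG (the core bound by TEAD factors, the DNA-binding partners of TAZ), TGANTCA (AP-1) and the CArG box (SRF). GGAATG was found in 1 of the 15 windows, at 149 bases before the TESK2 start, against 11.9% of all windows. TGANTCA and the CArG box were found in none of the 15, against 6.57% and 1.16% of all windows. No match says only that these letters are absent from the window.

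Both LIMK1 transcripts were lower with TAZ-siRNA on the TPM scale. NM_002314 stood at 35.2, 37.3 and 32.8 TPM with control-siRNA and 28.9, 30.7 and 29.1 TPM with TAZ-siRNA. NM_001204426 stood at 25.4, 25.8 and 27.9 TPM with control-siRNA and 21.8, 19.4 and 19.2 TPM with TAZ-siRNA. Neither pair of groups overlapped. The share of NM_002314 in the gene's TPM was 57.1 ± 2.68% in control and 59.5% in TAZ-siRNA libraries, so the split between the starts moved by less than the spread between control libraries. The log2 fold changes were -0.29 (SE 0.076) and -0.43 (SE 0.10), with adjusted p = 0.49 and 0.39 over all transcripts by edgeR.

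LIMK2, the second LIM kinase, had a low level per length, in a range shared with TESK2 and SSH2 in the controls. It stood at 15.0, 14.7 and 14.5 CPM with control-siRNA and 14.9, 16.6 and 13.3 CPM with TAZ-siRNA, and the groups overlapped. By edgeR, its estimated change on the log2 scale was 0.018 (SE 0.085, 95% interval -0.17 to 0.21, adjusted p = 0.90). Its sign turned to -0.056 without TAZ-siRNA replicate 2 and to -0.021 when GC content and length were corrected for, so no direction is given for it. Transcript NM_005569 held 85.0 ± 6.26% of its TPM in control and 81.1% in TAZ-siRNA libraries.

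The ratio of LIMK1 to LIMK2, on FPKM (fragment counts scaled by transcript length and library size), was 6.65, 7.07 and 7.22 with control-siRNA and 5.31, 4.76 and 6.13 with TAZ-siRNA. The groups did not overlap, and the log2 ratio was lower by 0.38 with TAZ-siRNA (-0.38, exact two-sided permutation p = 0.1, adjusted p = 0.2 over 6 ratios). With 3 libraries against 3, 0.1 is the smallest p this test can give.

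TESK1 and TESK2, the TES kinases, act on the same serine of cofilin as the LIM kinases. TESK1 stood at 21.9, 23.9 and 21.7 CPM with control-siRNA and 24.2, 24.3 and 26.0 CPM with TAZ-siRNA. TESK2 stood at 12.0, 13.6 and 13.4 CPM with control-siRNA and 13.7, 15.5 and 15.2 CPM with TAZ-siRNA. Neither gene's groups overlapped, but the steps between the nearest libraries were small. The log2 fold change of TESK1 was 0.14 (SE 0.065, adjusted p = 0.15) and that of TESK2 was 0.19 (SE 0.081, adjusted p = 0.12), neither past the threshold by edgeR. TESK2 overlaps TOE1, a gene with 910 to 1377 counts per library, and whether the authors counted by strand is not stated, so reads of the pair may be mixed. The ratio of TESK1 to TESK2 overlapped between the groups (log2 difference -0.051, exact two-sided permutation p = 0.6).

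Summed over the 4 kinases, FPKM were 39.4, 42.1 and 40.7 with control-siRNA and 36.7, 37.3 and 36.1 with TAZ-siRNA, and the groups did not overlap. LIMK1 made up 62.2, 61.5 and 62.9% of this sum with control-siRNA and 54.6, 53.0 and 54.3% with TAZ-siRNA. LIMK1 thus stayed the largest kinase by mRNA per length in every library. These sums count mRNA only and give each kinase the same weight.

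CFL1, the cofilin of most non-muscle cells, was the most abundant of the 10 and stood above 99.4% of all genes tested by CPM. It stood at 855, 873 and 928 CPM with control-siRNA and 877, 905 and 965 CPM with TAZ-siRNA, and the groups overlapped. This gave a log2 fold change of 0.049 (SE 0.063, 95% interval -0.090 to 0.19, adjusted p = 0.62 by edgeR). With GC content and length corrected for, it was 0.15 with an adjusted p of 0.015 by edgeR, while DESeq2 size factors, upper-quartile factors and limma on FPKM left it uncalled, with adjusted p of 0.49 to 0.68. In TPM its transcript NM_005507 stood at 1544 ± 31.5 with control-siRNA and 1658 ± 19.8 with TAZ-siRNA (SD, n = 3 each) without overlap, and did not pass the test of transcript counts (adjusted p = 0.94 by edgeR). In every setting run the log2 fold change was above 0 and at most 0.15. Its 6 listed pseudogenes, CFL1P1 to CFL1P6, held 0 to 14 counts per library.

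CFL2, the cofilin best known from muscle, rose. It stood at 117, 117 and 115 CPM with control-siRNA and 136, 134 and 131 CPM with TAZ-siRNA. Every TAZ-siRNA library lay above every control library, and the means were 117 ± 0.997 and 134 ± 2.79 CPM (SD, n = 3 each). This gave a log2 fold change of 0.20 (SE 0.043, 95% interval 0.099 to 0.29, adjusted p = 0.0099 by edgeR), or 115% of control. It stayed past the threshold in 4 of 6 fits with a library left out. Omitting control-siRNA replicate 2 or 3 gave an adjusted p of 0.056 or 0.053 by edgeR, at a log2 fold change of 0.20 or 0.19.

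The main CFL2 transcript was NM_138638, with 70.3 ± 1.92% of the gene's TPM in control and 74.8% in TAZ-siRNA libraries. It stood at 45.4, 47.1 and 42.9 TPM with control-siRNA and 60.6, 55.4 and 53.1 TPM with TAZ-siRNA, without overlap (log2 fold change 0.28, SE 0.062, adjusted p = 0.36 over all transcripts by edgeR). The 250 bases before its start are shown for comparison with LIMK1, since this gene moved the other way. They are on the minus strand of GRCh38.p14 and written 5′ to 3′, with GGGCGG matches on either strand in capitals.
CFL2, chr14:34714594-34714843: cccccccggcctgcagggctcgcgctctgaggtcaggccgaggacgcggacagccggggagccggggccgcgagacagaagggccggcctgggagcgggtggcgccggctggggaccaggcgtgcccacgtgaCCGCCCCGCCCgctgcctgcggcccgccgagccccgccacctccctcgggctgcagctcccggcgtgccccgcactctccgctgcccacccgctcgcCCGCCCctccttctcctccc
The window had 3 matches to GGGCGG, of which the first 2 overlap, and a GC content of 80.4%. Like the LIMK1 windows it had no match to the TEAD core, AP-1 or the CArG box.

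CFL1 made up 95.8, 96.0 and 96.2% of the summed cofilin FPKM with control-siRNA and 95.4, 95.6 and 96.0% with TAZ-siRNA. CFL1 thus held over 95% of the cofilin mRNA in every library. The ratio of CFL1 to CFL2 ran from 23.1 to 25.4 with control-siRNA and from 20.8 to 23.8 with TAZ-siRNA, overlapping (log2 difference -0.13, exact two-sided permutation p = 0.3, adjusted p = 0.36).

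**Figure D2:**
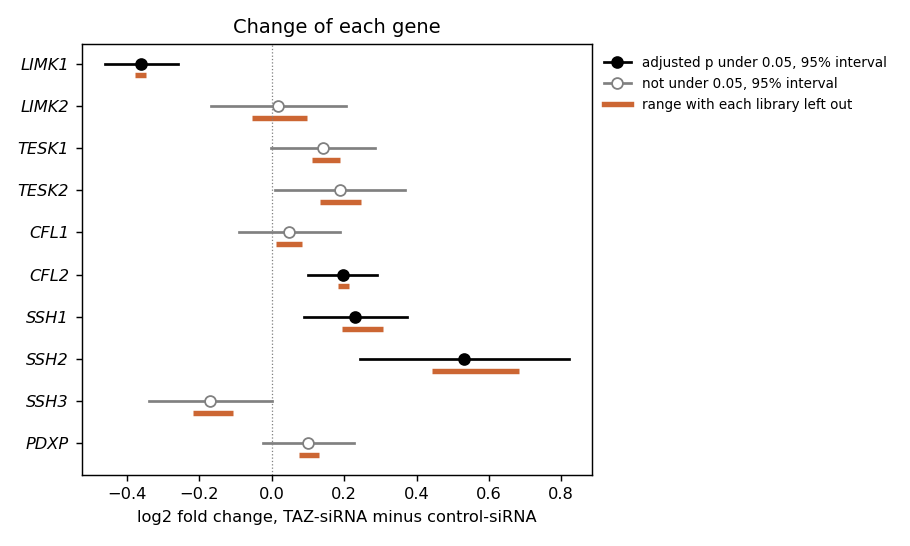
Log2 fold change of each gene (horizontal axis, TAZ-siRNA minus control-siRNA, edgeR) with its 95% interval, and below it the range with each library left out in turn. LIMK1 lies at -0.36 with a narrow range, SSH2 at 0.53 has the widest interval, and the range of LIMK2 crosses 0.

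SSH2, a slingshot phosphatase that removes the phosphate from cofilin, had the largest change of the 10. It stood at 38.8, 36.2 and 35.5 CPM with control-siRNA and 58.0, 60.2 and 41.7 CPM with TAZ-siRNA. All TAZ-siRNA libraries were above the controls, but replicate 3 exceeded the highest control by little while replicates 1 and 2 were far higher. The means were 36.8 ± 1.71 and 53.3 ± 10.1 CPM (SD, n = 3 each), or 145% of control. The log2 fold change was 0.53 (SE 0.13, 95% interval 0.24 to 0.82, adjusted p = 0.019 by edgeR). Without TAZ-siRNA replicate 3, the library that stood apart, it was 0.68 with an adjusted p of 4.0e-07. It missed the threshold in 3 of 6 such fits, with an adjusted p of 0.060, 0.065 and 0.071 without control-siRNA replicate 2, control-siRNA replicate 3 and TAZ-siRNA replicate 1, and by limma on FPKM (0.057 at a pseudocount of 1). EFCAB5, which overlaps SSH2, held 39 to 94 counts per library.

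SSH2 has 18 transcripts in the table, and NM_033389 and NM_001282129, which start close together, held the largest shares of its TPM. NM_033389 stood at 3.31, 2.19 and 2.47 TPM with control-siRNA and 3.42, 7.56 and 2.39 TPM with TAZ-siRNA. NM_001282129 stood at 3.58, 2.81 and 2.59 TPM with control-siRNA and 4.56, 3.65 and 1.91 TPM with TAZ-siRNA. Both overlapped between the groups, so the rise seen for the gene was not placed on either of them. The bases before the NM_001282129 start, on the minus strand of GRCh38.p14, are shown because SSH2 moved furthest.
SSH2, chr17:29930229-29930478: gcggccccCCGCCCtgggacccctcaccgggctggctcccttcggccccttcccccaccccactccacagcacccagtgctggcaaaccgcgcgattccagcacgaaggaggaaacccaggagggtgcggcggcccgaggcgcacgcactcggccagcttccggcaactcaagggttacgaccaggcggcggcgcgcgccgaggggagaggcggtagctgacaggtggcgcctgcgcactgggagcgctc
The capitals mark its single GGGCGG match, read on the other strand, and its GC content was 73.2%.

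SSH1, the slingshot with the most counts, rose by less. It stood at 68.6, 68.3 and 69.1 CPM with control-siRNA and 84.4, 85.1 and 72.2 CPM with TAZ-siRNA. The controls lay within a CPM of each other, and TAZ-siRNA replicate 3 was again the nearest to them. The log2 fold change was 0.23 (SE 0.064, 95% interval 0.089 to 0.37, adjusted p = 0.027 by edgeR). The call held in 1 of 6 fits with a library left out, the one without TAZ-siRNA replicate 3 (0.31, adjusted p = 7.8e-05), while the other 5 gave 0.19 to 0.23 with adjusted p up to 0.11. It was also lost when GC content and length were corrected for (0.11, adjusted p = 0.066) and on FPKM with limma (0.11, adjusted p = 0.52 at a pseudocount of 1).

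The reads of SSH1 were split between 2 main transcripts of unequal length. NM_018984 held 26.2, 69.0 and 19.3% of its TPM with control-siRNA and 30.1, 73.8 and 51.8% with TAZ-siRNA. XM_017019493, the shorter form, held 66.3, 7.15 and 72.6% with control-siRNA and 58.0, 8.77 and 15.0% with TAZ-siRNA. The split swung within both groups, and replicate 2 of each had the lowest share of XM_017019493. SSH1 stood at 6.41, 5.46 and 6.76 FPKM with control-siRNA and 7.99, 6.57 and 5.87 FPKM with TAZ-siRNA, so the groups overlapped per length although they did not in CPM. The part of the transcript split in this difference was not tested.

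SSH3, the third slingshot, lay lower with TAZ-siRNA but did not pass the test. It stood at 21.3, 22.3 and 19.6 CPM with control-siRNA and 19.4, 19.5 and 17.1 CPM with TAZ-siRNA. The highest TAZ-siRNA library and the lowest control differed by little, so the groups were separate by a narrow gap. The log2 fold change was -0.17 (SE 0.077, 95% interval -0.34 to -0.00036, adjusted p = 0.14 by edgeR). Its main transcript, NM_017857, held 85.1 ± 6.29% of its TPM in control and 73.4, 85.6 and 45.1% in the TAZ-siRNA libraries, the lowest being replicate 3.

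PDXP encodes chronophin, which acts on cofilin and also removes the phosphate from the active form of vitamin B6. It stood at 32.2, 32.4 and 34.3 CPM with control-siRNA and 34.9, 36.8 and 34.4 CPM with TAZ-siRNA. The groups were separate by a very narrow gap, with the highest control at 34.35 CPM and the lowest TAZ-siRNA library at 34.38 CPM. A log2 fold change of 0.10 was estimated (SE 0.057, 95% interval -0.025 to 0.23, adjusted p = 0.23 by edgeR).

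SSH2 held a larger part of the slingshot mRNA in every TAZ-siRNA library than in any control. It made up 22.7, 22.4 and 21.9% of the summed slingshot FPKM with control-siRNA and 29.0, 31.7 and 26.6% with TAZ-siRNA, without overlap. The ratio of SSH2 to SSH3 was 0.565, 0.506 and 0.584 with control-siRNA and 0.918, 0.938 and 0.767 with TAZ-siRNA (log2 difference 0.66, exact two-sided permutation p = 0.1, adjusted p = 0.2). The ratio of SSH1 to SSH2 was 1.64, 1.49 and 1.85 with control-siRNA and 1.36, 1.09 and 1.46 with TAZ-siRNA (log2 difference -0.35, exact two-sided permutation p = 0.1, adjusted p = 0.2). Both kept groups apart in every library, including TAZ-siRNA replicate 3, and 0.1 is the lowest p possible. On FPKM the ratio of SSH1 to SSH3 overlapped (log2 difference 0.31, exact two-sided permutation p = 0.2, adjusted p = 0.3). In CPM every TAZ-siRNA library lay above every control for SSH1 and below every control for SSH3. The ratio of SSH1 to SSH3 therefore did not overlap on that scale.

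The summed FPKM of the 4 phosphatases was 31.5, 30.9 and 31.9 with control-siRNA and 36.2, 35.7 and 30.0 with TAZ-siRNA, so replicate 3 fell below all controls and the groups overlapped. Summed in CPM, which are not per length, the same 4 genes gave 161, 159 and 159 with control-siRNA and 197, 202 and 165 with TAZ-siRNA. On that scale replicate 3 lay above every control and the groups did not overlap, so the phosphatase sum has no outcome common to both scales. PDXP made up 46.6 ± 1.27% of the FPKM sum in control and 46.7 ± 2.79% in TAZ-siRNA libraries (SD, n = 3 each). The kinase sum divided by the phosphatase sum was 1.25, 1.36 and 1.28 with control-siRNA and 1.01, 1.04 and 1.20 with TAZ-siRNA. In CPM it was 0.860, 0.914 and 0.900 with control-siRNA and 0.628, 0.630 and 0.773 with TAZ-siRNA. This quotient was lower in every TAZ-siRNA library than in any control on both scales, with replicate 3 nearest to the controls. It was not tested, since it was built from sums chosen for description.

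**Figure D3:**
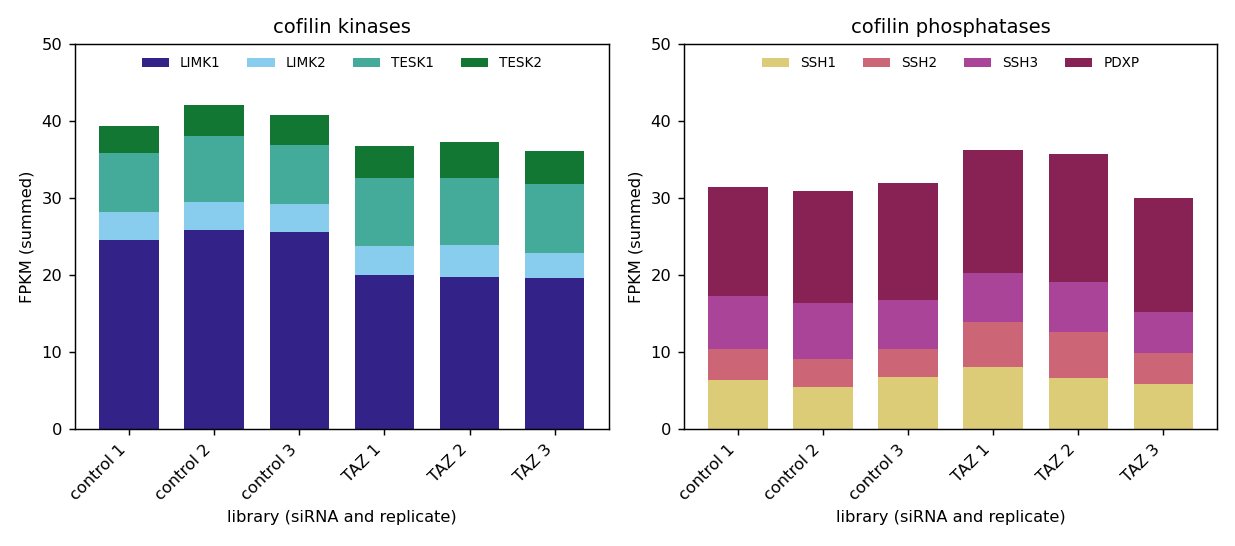
FPKM of the 4 cofilin kinases (left) and the 4 cofilin phosphatases (right) stacked in each library, both axes linear from 0. The kinase sums with TAZ-siRNA (36.1 to 37.3) lie below the controls (39.4 to 42.1) through a smaller LIMK1 part, and the phosphatase sum of TAZ-siRNA replicate 3 (30.0) lies below those of replicates 1 and 2.

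By level per length, the order with control-siRNA was CFL1 (635 FPKM), CFL2 (26.4), LIMK1 (25.3), PDXP (14.6), TESK1 (7.99), SSH3 (6.82), SSH1 (6.21), TESK2 (3.78), SSH2 (3.75) and LIMK2 (3.63). The libraries of SSH3 and SSH1 overlapped, as did those of TESK2, SSH2 and LIMK2, so their order is not fixed by these data. With TAZ-siRNA, CFL1 (661 FPKM), CFL2 (30.0), LIMK1 (19.8), PDXP (15.8) and TESK1 (8.84) kept their places. CFL2 and LIMK1, close together in controls, were then clearly apart. SSH1 (6.81 FPKM), SSH3 (6.03), SSH2 (5.31), TESK2 (4.34) and LIMK2 (3.71) followed, and each overlapped its neighbour. SSH2 stood ninth of the 10 with control-siRNA and eighth with TAZ-siRNA.

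Across all 51 listed transcripts of the 10 genes, 34 were tested and 0 passed an adjusted p under 0.05 by edgeR, where 0.0170% of all 64638 transcripts tested did. At an unadjusted p under 0.05 there were 4, namely both LIMK1 transcripts, 1 of CFL2 and 1 of SSH2. The share of all transcripts at that cut is not given here. DESeq2 called 4 of the 34, and 2302 of all 64638 transcripts tested. Its 4 were NM_002314 and NM_001204426 of LIMK1, NM_138638 of CFL2 and XM_006722149 of SSH2, the last named after its result was seen. The biological coefficient of variation was 84.4% for transcripts and 8.04% for genes, so a transcript's value is much less precise than a gene's. TESK1 (NM_006285), TESK2 (NM_007170) and PDXP (NM_020315) each drew most of their TPM from a single transcript, at 86.0%, 97.5% and 100% in control libraries.

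**Figure D4:**
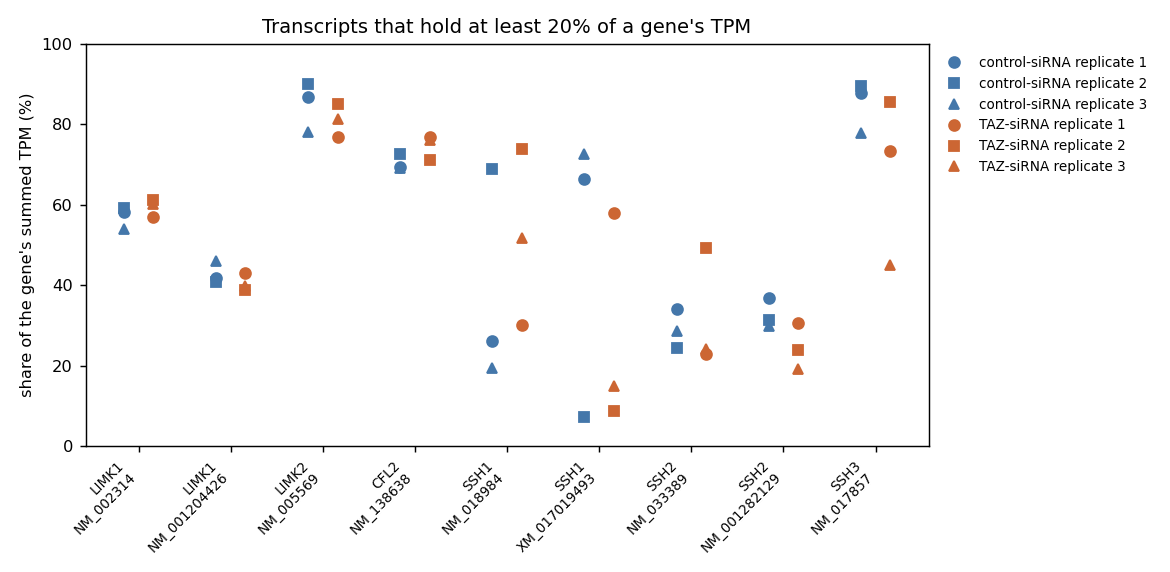
Share of a gene's summed TPM (vertical axis, %) held by each transcript with at least 20% of it on the mean of all libraries, for the 6 genes with several transcripts whose splits the text describes. The share of NM_002314 in LIMK1 stays between 54.0% and 61.3%, while the SSH1 shares swing from 7.15% to 73.8%.

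The genes around the cycle were read from 6 lists chosen by role, and of their 55 genes, all tested, 6 rose and 4 fell (18.2%, against 22.1% of all genes), with a median log2 fold change of 0.014. The order of these shares turned with the setting. Without TAZ-siRNA replicate 3 it was 21 of 55 (38.2%, against 33.7% of all genes), without control-siRNA replicate 2 it was 6 (10.9%, against 11.2%), and with GC content and length corrected for in a fit with a replicate block it was 24 (43.6%, against 33.8%). Of 13 upstream GTPases and kinases, 2 rose and none fell. RHOB, a small GTPase known for rapid induction by stress and growth factors, rose from 74.7 ± 3.84 to 126 ± 13.7 CPM (SD, n = 3 each; log2 fold change 0.76, SE 0.074, adjusted p = 1.8e-04 by edgeR). PAK1, a kinase that activates LIMK1, rose from 51.9 ± 1.12 to 60.3 ± 2.10 CPM (0.22, adjusted p = 0.013 by edgeR), and its call held in 3 of 6 fits with a library left out (adjusted p 0.055 to 0.071 without control-siRNA replicate 1, control-siRNA replicate 2 or TAZ-siRNA replicate 1). RHOA, ROCK1 and ROCK2 were among the 11 that did not pass. Their log2 fold changes were -0.11, 0.12 and 0.064, with adjusted p of 0.18, 0.22 and 0.59 by edgeR.

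Of 8 partners of LIM and TES kinases, 2 rose and 1 fell. SPRY4, an inhibitor of growth-factor signalling that binds TESK1, rose from 259 ± 12.3 to 371 ± 40.8 CPM (log2 fold change 0.52, adjusted p = 0.0015 by edgeR). BMPR2, a BMP receptor whose tail binds LIMK1, rose from 91.5 ± 1.94 to 121 ± 12.4 CPM (0.41, adjusted p = 0.0026 by edgeR). PARVA, an adhesion protein that binds TESK1, fell from 90.5 ± 1.37 to 78.8 ± 1.62 CPM (-0.20, adjusted p = 0.010 by edgeR), with an adjusted p of 0.065 without control-siRNA replicate 2 and 0.055 by limma on FPKM. TAZ-siRNA replicate 3 was the closest of its group to the controls for SPRY4 (328 CPM) and BMPR2 (107 CPM), as it was for SSH1 and SSH2.

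Of 14 regulators of slingshot phosphatases, 2 rose and none fell. PPP3CB, a catalytic subunit of calcineurin, which activates slingshot, rose from 38.4 ± 1.29 to 51.9 ± 2.39 CPM (log2 fold change 0.43, adjusted p = 6.6e-04 by edgeR). YWHAG, a 14-3-3 protein of the family that binds phosphorylated slingshot, rose from 435 ± 5.73 to 494 ± 11.5 CPM (0.18, adjusted p = 0.031 by edgeR), a call that held in 2 of 6 fits with a library left out. It was lost without any control replicate or TAZ-siRNA replicate 1 (adjusted p 0.082 to 0.14). The other genes of the list included PRKD1 at 0 to 0.337 CPM, whose log2 fold change of -0.84 rests on few counts.

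Of 11 partners of cofilin at the filament, 3 fell and none rose. CORO1B, a coronin that guides cofilin and slingshot at the leading edge, fell from 105 ± 2.51 to 86.5 ± 3.60 CPM (log2 fold change -0.29, adjusted p = 0.0027 by edgeR), but the adjusted p was 0.090 by limma on FPKM. GMFG, a cofilin-related protein that prunes actin branches, fell from 32.7 ± 2.81 to 26.9 ± 1.75 CPM (-0.28, adjusted p = 0.022 by edgeR) and kept its call in 2 of 6 fits with a library left out. The adjusted p was 0.054 to 0.097 without control-siRNA replicate 2 or 3 or TAZ-siRNA replicate 1 or 2, and 0.060 with GC content and length corrected for. CAP2, which works with cofilin on filament ends, fell from 52.2 ± 0.884 to 43.5 ± 2.60 CPM (-0.26, adjusted p = 0.0091 by edgeR). DSTN, the third member of the cofilin family, stood at 207 ± 3.92 and 221 ± 6.73 CPM without overlap, and did not pass (adjusted p = 0.18 by edgeR).

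None of the 6 genes for actin and actin monomer binding passed by edgeR, with 1 at an unadjusted p under 0.05 and a median log2 fold change of -0.027.

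**Figure D5:**
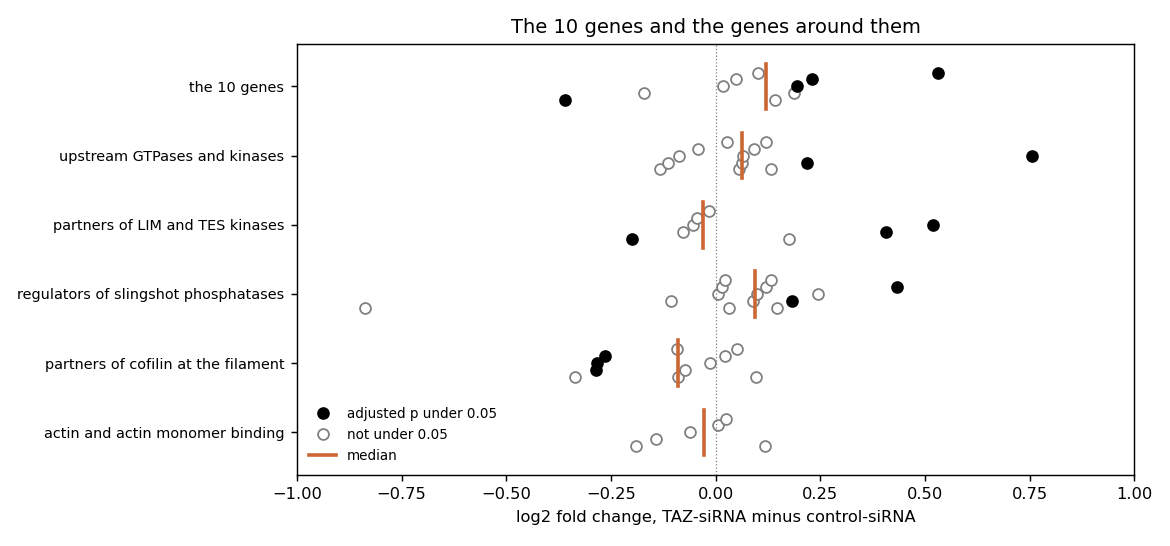
Log2 fold change (horizontal axis, TAZ-siRNA minus control-siRNA, edgeR) of each of the 10 genes and of the genes in 5 of the 6 lists, with filled points at an adjusted p under 0.05 and bars at the medians. The 3 filled points of the filament partners all lie below 0, and RHOB at 0.76 is the point furthest to the right.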

How the data were processed

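RNA of 6 MDA-MB-231 preparations was sequenced from stranded mRNA libraries as paired ends of 100 bases. Per the study's methods, the authors used HISAT2 for mapping (GRCh38) after trimming and StringTie for RefSeq quantification, whereas the submitters' processing notes name Bowtie 0.12.2. The deposited estimated counts are whole numbers. The authors scaled the deposited FPKM for length and library size and the deposited TPM to a common total. Whether counting used the strand is not stated in the sources used here.

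TAZ-siRNA was tested against control-siRNA in R 4.3.3 by the robust quasi-likelihood test of edgeR 4.0.16, after TMM scaling and filterByExpr (minimum count 10), with Benjamini-Hochberg adjustment over every gene tested. Alternatives were DESeq2 1.42.0, upper-quartile factors, other filters, a replicate block, a GC and length correction, limma 3.58.1 on log2 FPKM with a pseudocount of 1 or 0.1, and leaving out each library. Sums of CPM were added after the data were seen. Ratios of FPKM were tested by exact permutation. Transcripts were fitted likewise. Replicate numbers come from the sample descriptions, while the sample titles number the same libraries differently, in the same order. The p-values measure the spread between preparations. The steps were tested on simulated data. The floor of 3 counts was 0.0411 to 0.0618 CPM and covers counting error only.

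The 10 genes and the lists were chosen with earlier results of these data known. All 10 genes are named, WWTR1, up to 3 genes per list and direction past the threshold by size of change, and transcripts with at least 20% of a gene's TPM. Other list genes were named after their values were seen. Coordinates come from the deposited transcript table. Some planned results are not reported here.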

Additional observations from a re-analysis of the deposited data

How the results depend on the processing

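Of 150 values computed for the log2 fold changes of the 10 genes under the alternatives, 128 kept their direction and their side of the threshold, 16 lost the call, 3 gained it and 3 turned sign, all 3 for LIMK2 at adjusted p of 0.69 or more by edgeR (-0.021 with the GC and length correction, -0.023 with that correction and a replicate block, -0.056 without TAZ-siRNA replicate 2, and between -0.056 and 0.097 over the 6 fits that omit a library). LIMK1 was past the threshold in all 15. The 3 gained calls were CFL1 with the GC and length correction (adjusted p = 0.015), and CFL1 (0.0058) and SSH3 (0.035) with that correction and a replicate block, all by edgeR. The count of genes called among the 10 was 4 by the chosen fit (against 22.1% of all genes). It was 5 with the GC and length correction and a replicate block (against 33.8%). By limma it was 2 at a pseudocount of 1 or 0.1 (against 16.6% or 16.7%), and 2 were called at an adjusted p under 0.01 (against 10.1%). With each library left out it was 1 to 4 (against 11.2% to 33.7%), the lowest without control-siRNA replicate 2 or 3.

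Over all genes, 3749 were called, 1720 at an adjusted p under 0.01, and 1937 to 5928 with each library left out, the highest without TAZ-siRNA replicate 3. Of the 55 list genes, 10 were called, and 6 at an adjusted p under 0.01 (10.9%, against 10.1% of all genes). With the GC and length correction 17 were called (30.9%, against 29.6%), and with a replicate block 17 (30.9%, against 30.2%). With both it was 24 (43.6%, against 33.8%). With each library left out it was 6 to 21 (6 without control-siRNA replicate 2, 21 without TAZ-siRNA replicate 3). DESeq2 called 4 transcripts of the 10 genes where edgeR called 0, and 2302 of all 64638 transcripts where edgeR called 11. The log2 ratio of TESK1 to TESK2 turned to 0.0038 without TAZ-siRNA replicate 2, within a range of -0.10 to 0.0038. The cause of these changes was not tested.

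Same-numbered libraries showed little common deviation (r = -0.017, 0.0086 and 0.070, with 3 of 6 libraries correlating best with their own number). So few libraries cannot decide whether those of the same number share a preparation or batch. With the replicate block 5122 genes were called, against 3749 without it, and 4 of the 10 genes. GC content and length were available for 89.7% of genes tested and for 100% of the 10 genes and the lists. Depth did not keep any of the 10 from being tested.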

Other observations

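Beside PDXP, whose phosphatase also acts on the active form of vitamin B6, PDXK, the kinase that makes this form, stood at 80.5, 84.3 and 78.6 CPM with control-siRNA and 74.9, 77.9 and 77.5 CPM with TAZ-siRNA. It lay lower in every TAZ-siRNA library than in any control and did not pass the test (log2 fold change -0.080, adjusted p = 0.26 by edgeR).

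Among the actins, ACTB stood at 2447 ± 21.5 CPM with control-siRNA and 2654 ± 30.2 CPM with TAZ-siRNA, and ACTG1 at 2986 ± 108 and 2619 ± 114 CPM (SD, n = 3 each). Neither gene's groups overlapped, they lay in opposite directions, and neither passed (adjusted p = 0.17 and 0.056 by edgeR).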
